A study of Mus musculus with 3 samples.

Results

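Endothelial cells were 143 of the 9661 cells (1.48%) in 3 droplet single-cell RNA libraries of the dissected intermediate lobe (IL) of the mouse pituitary. A cell was taken as endothelial when at least 3 of the 9 genes Plvap, Pecam1, Cdh5, Emcn, Kdr, Flt1, Esam, Egfl7 and Ly6c1 each gave at least 1 unique molecular identifier (UMI, the tag of 1 captured transcript) and when at most 1 of C1qa, C1qb, Dcn and Cyp2f2, genes of macrophages, fibroblasts and stem cells, was detected. By this rule 75 of 2020 cells were endothelial in the library labelled WT, 22 of 4153 in P27NULL and 46 of 3488 in S2CK.

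Endothelial cells line blood vessels and hold on to one another through VE-cadherin, the product of Cdh5. They read VEGF through the receptors encoded by Kdr and Flt1, and in endocrine glands many of their capillaries are fenestrated, with pores bridged by a diaphragm of the Plvap product, through which hormones reach the blood. In normal mice the IL itself holds few vessels. By vessel staining, the study reports ectopic vessels in the IL of mice that lack p27, and fewer after partial deletion of Sox2 in stem cells. The neighbouring anterior and posterior lobes are richly supplied, and by the study's methods both lobes were cut away before dissociation. Markers of both were still read. In WT, P27NULL and S2CK 4.16%, 2.37% and 1.08% of the other cells held 3 or more anterior lobe hormone genes. For markers of pituicytes, cells of the posterior lobe, these shares were 1.70%, 0.823% and 0.726%. The lobe from which the endothelial cells came was not tested.

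Each library came from 1 pool of 3 month old mice, so each genotype is a single sample. WT is labelled Sox9iresCreERT2/+, a tamoxifen-inducible Cre recombinase placed at Sox9, a gene of stem cells. P27NULL is labelled Sox9iresCreERT2/+;p27-/-, a label that stands for germline loss of p27, the Cdk inhibitor that Cdkn1b encodes. S2CK is labelled Sox9iresCreERT2/+;Sox2fl/+;p27-/-, with 1 floxed copy of the stem cell gene Sox2 open to deletion in cells that express Sox9. By the methods of the study all mice also carried Rosa26ReYFP/+, a reporter turned on by Cre. All mice were given tamoxifen, at 4 weeks of age by the labels and at birth by the study's text. The pool for WT was described as male and the others as holding both sexes. Because Cre was driven by Sox9, of which the endothelial cells held 0, 1 and 0 UMIs, deletion of Sox2 is not aimed at these cells, in which Sox2 itself gave 8, 1 and 1 UMIs. Values listed as 3 numbers are in the order WT, P27NULL and S2CK.

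The endothelial cells held 121571, 72934 and 139151 UMIs in all, with a median per cell of 1135, 2275.5 and 2167.5 UMIs (3696, 2740 and 4924.5 in all other cells). In WT 28 endothelial cells lay under 1000 UMIs, against 0 in the other libraries, whose cells all held more. Transcripts of Cdkn1b, the deleted gene, were read at 57.6 CPM (UMIs per 1000000 UMIs of the sum, 95% interval 23.2 to 119), 41.1 (8.48 to 120) and 28.7 CPM (7.83 to 73.6) in endothelial cells, from 7, 3 and 4 UMIs, and at 41.0, 33.9 and 17.6 CPM in all other cells. The endothelial intervals overlap, so the endothelial counts do not separate the library labelled P27NULL from WT. UMIs assigned to Cdkn1b were thus read in both libraries labelled p27-/-. Their origin was not tested, and the label is used as a name only. Xist, read from the inactive X chromosome, was found in 0, 8 and 29 endothelial cells, and a UMI of the Y-linked genes Ddx3y, Eif2s3y, Uty or Kdm5d in 14, 4 and 0. In the other cells Xist was found in 0, 775 and 3245 and a Y-linked UMI in 565, 767 and 0, which leaves S2CK with no sign of the male cells that its description names. No endothelial barcode occurred in a second library. Some members carried transcripts of other cells. Hormone genes (Pomc, Gh, Prl, Cga, Lhb, Fshb, Tshb) or haemoglobin genes took over 2% of the UMIs of 6, 2 and 9 members, and haemoglobin alone took 50.015% in 1 member of P27NULL and 52.3% in 1 member of S2CK. The deepest member gave 7.44%, 16.6% and 6.84% of the endothelial UMIs of its library. Where a result rests on 1 member, the UMIs of that member or the value without it are given.

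The rule genes themselves describe how the members were chosen and were not tested. Members held a median of 6, 6.5 and 6 of the 9 genes, while 95.9%, 97.2% and 95.7% of the other cells held none. Plvap (chromosome 8, 71497753 to 71511806 in GRCm38) stood at 1727 CPM (1502 to 1978), 1152 (919 to 1426) and 1035 CPM (873 to 1218) in endothelial cells and at 2.56, 0.902 and 0.576 CPM in the other cells, and was found in 94.7%, 90.9% and 89.1% of members. Egfl7 (chromosome 2, 26581083 to 26592682), which encodes a secreted protein of the vessel wall, stood at 3002, 1618 and 2019 CPM, in 96.0%, 95.5% and all of members. Emcn (chromosome 3, 137341062 to 137431069), the sialomucin endomucin of capillaries and veins, stood at 1267, 699 and 1488 CPM, in 80.0%, 81.8% and 93.5% of members. Kdr (chromosome 5, 75932827 to 75979072) was read at 716, 480 and 438 CPM and Pecam1 (chromosome 11, 106654213 to 106715281), the adhesion molecule CD31, at 345, 288 and 216 CPM. The 5 label genes were thus high in all 3 libraries, with Pecam1 the least exclusive at 2.68, 2.58 and 2.72 CPM in the other cells. Of the genes that bar a cell, C1qa gave 0 UMIs in every library, C1qb 1, 1 and 0, Dcn 10, 4 and 26 and Cyp2f2 8, 11 and 0.

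**Figure D1:**
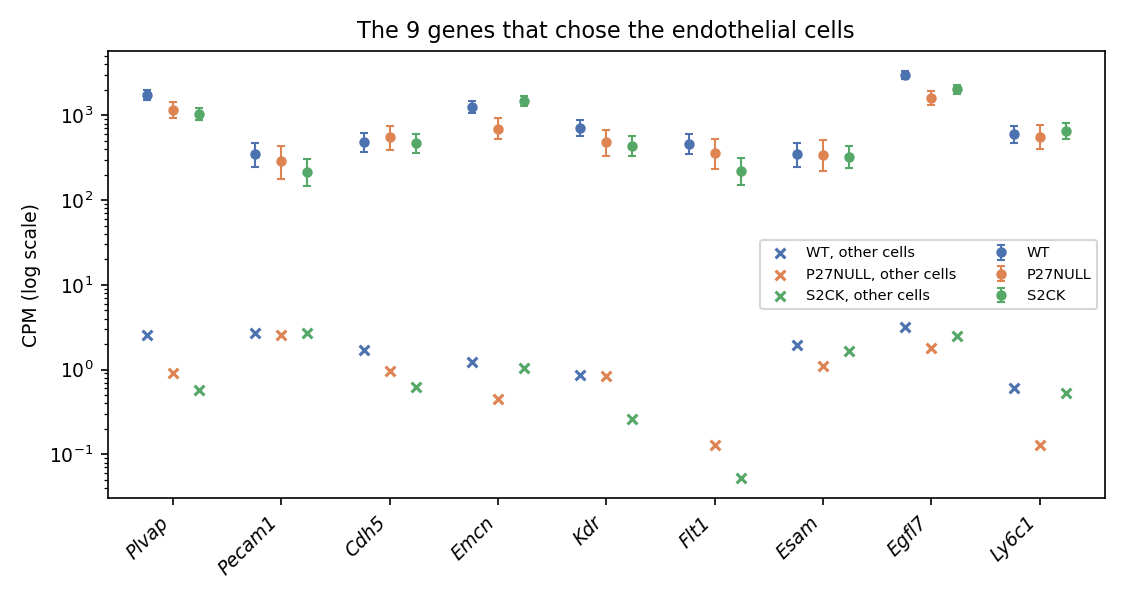
Levels of the 9 rule genes, in CPM on a log axis, in the endothelial cells (dots, bars are exact 95% Poisson intervals) and in all other cells (crosses) of each library. Every dot lies far above its cross, and Flt1 of WT has no cross because it gave 0 UMIs in the other cells.

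At the edge of the rule, 4, 3 and 3 members held exactly 3 rule genes, with a median of 735, 2130 and 1463 UMIs. Outside it, 5, 0 and 5 cells held exactly 2, and 2, 2 and 3 cells held at least 3 rule genes but were barred by other genes, with a median of 7811.5, 9353.5 and 21912 UMIs. Few cells lay near the threshold. The barred cells ranged from 5275 to 10348 UMIs in WT, from 1251 to 17456 in P27NULL and from 18475 to 46240 in S2CK.

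Endothelial cells were 3.71% (95% Clopper-Pearson interval 2.93 to 4.63%) of WT cells, 0.530% (0.332 to 0.801%) of P27NULL cells and 1.32% (0.967 to 1.76%) of S2CK cells. The intervals do not overlap, but they cover counting error only and say nothing of the spread between mice or dissections, for which there is no replicate. With all cells required to hold 500 genes and 1000 UMIs the WT share was 2.54% (1.87 to 3.36%, 47 of 1852 cells). With each cell thinned to 1000 UMIs before the rule was applied, the shares were 2.15% (1.54 to 2.92%), 0.458% (0.276 to 0.714%) and 1.09% (0.772 to 1.49%). The order WT, S2CK, P27NULL was the same under these settings, and the WT share fell most. The share depends on how many melanotrophs and other cells were loaded, so a change in the number of endothelial cells and a change in the number of the rest cannot be told apart. Endothelial cells carried over from the other lobes cannot be told apart from those of the IL either. Vessel area in the IL, which the study reports as larger in p27-/- mice, is a different measure from these shares.

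**Figure D2:**
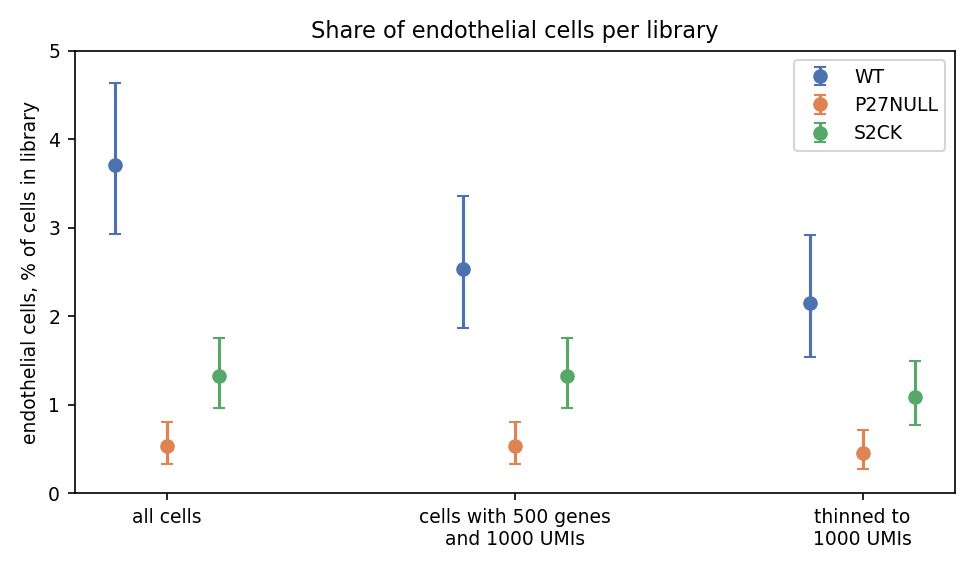
Endothelial cells as a percentage of all cells in each library, as deposited, among cells with at least 500 genes and 1000 UMIs, and after thinning each cell to 1000 UMIs, with 95% Clopper-Pearson intervals. WT is highest and P27NULL lowest in all 3 settings.

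To find what else sets these cells apart, UMIs were summed per library over the endothelial cells and over all other cells, and the 6 sums were compared with the quasi-likelihood test of edgeR with the library as a block. Of 14878 genes tested outside the rule, 1151 (7.74%) were higher and 1578 (10.6%) lower in endothelial cells at an adjusted p (Benjamini-Hochberg over all genes) under 0.05. The median log2 difference over all genes was -0.55 and became -0.11 when library totals replaced TMM factors, with 1588 genes higher and 759 lower. Differences near 0 therefore depend on the scaling. Without WT 765 genes were higher and 825 lower, and without S2CK 725 and 955. Since members were chosen by endothelial genes, high levels of further endothelial genes are made likely by the choice itself. The p-values then measure how steady a difference was over the 3 libraries and are no independent evidence of cell identity.

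Of 26 endothelial identity genes outside the rule, 23 were higher, with a median log2 difference of 7.55. Myct1 gave 115, 192 and 93.4 CPM in endothelial cells and 0 UMIs in all other cells of every library, at least 1754-fold higher (adjusted p = 4e-35). Robo4, a guidance receptor that steadies vessels, stood at 115, 219 and 93.4 CPM, from 43 UMIs against 2 in the other cells, a ratio of 2760 (719 to 23516, exact 95% counting interval). Adgrl4, an adhesion receptor of vessels, was read at 493, 411 and 388 CPM against 0.852, 0.0645 and 0.209 CPM, a log2 difference of 9.96 ± 0.34 (SE, adjusted p = 5.1e-185). These genes were all but absent from the other cells. Ramp2, the coreceptor for adrenomedullin, differed by 7.01 (847, 727 and 884 CPM), Cd34 by 7.59 (403, 384 and 316 CPM), Eng, a TGF-beta coreceptor, by 7.52 (321, 315 and 302 CPM) and Clec14a by 7.94. Not called were Nos3, the endothelial nitric oxide synthase, at 24.7, 54.8 and 28.7 CPM against 21.9, 18.2 and 26.5 CPM (adjusted p = 0.91), Gpr182, and Vwf, the von Willebrand factor of larger vessels, with 0 UMIs in members.

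The 15 genes with the highest fitted log2 differences all lay at or above 9.28. They were Myct1, Grrp1, Sox17, Robo4, Fabp4, Cd300lg, Irx3, Adgrl4, Igfbp3, Tbxa2r, Gpihbp1, Sox18, Ecscr, Tie1 and Adgrf5. Myct1 and Grrp1 gave 0 UMIs in the other cells, so their fitted values are no bound. Igfbp3, which encodes a binding protein for insulin-like growth factors, was read at 2032, 1056 and 1452 CPM against 2.68, 0.838 and 0.471 CPM (9.93 ± 0.26, adjusted p = 1.3e-319), in 72%, 86.4% and 73.9% of members. Gpihbp1, which holds lipoprotein lipase on the capillary wall, was read at 395, 370 and 446 CPM (9.69 ± 0.34, adjusted p = 2e-169). Gpihbp1 held similar levels in the 3 libraries and Igfbp3 was lowest in P27NULL. Fabp4, a fatty acid carrier, was uneven at 576, 3058 and 1509 CPM with 28 of 70, 140 of 223 and 100 of 210 UMIs in 1 member of each library. The 5 lowest were Tshb, 4732414G09Rik, Tceal5, Faim2 and Ccl5, each with 0 UMIs in endothelial cells. In the other cells Tceal5 stood at 46.6, 66.5 and 40.5 CPM and Faim2 at 49.3, 52.2 and 38.7 CPM. Tshb, a thyrotroph hormone subunit, was found mainly in WT, at 152 CPM against 0.322 and 0.262 CPM, and Ccl5, a lymphocyte chemokine, stood at 91.3, 9.15 and 24.7 CPM. For Tshb the log2 difference was 0.36 by DESeq2.

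**Figure D3:**
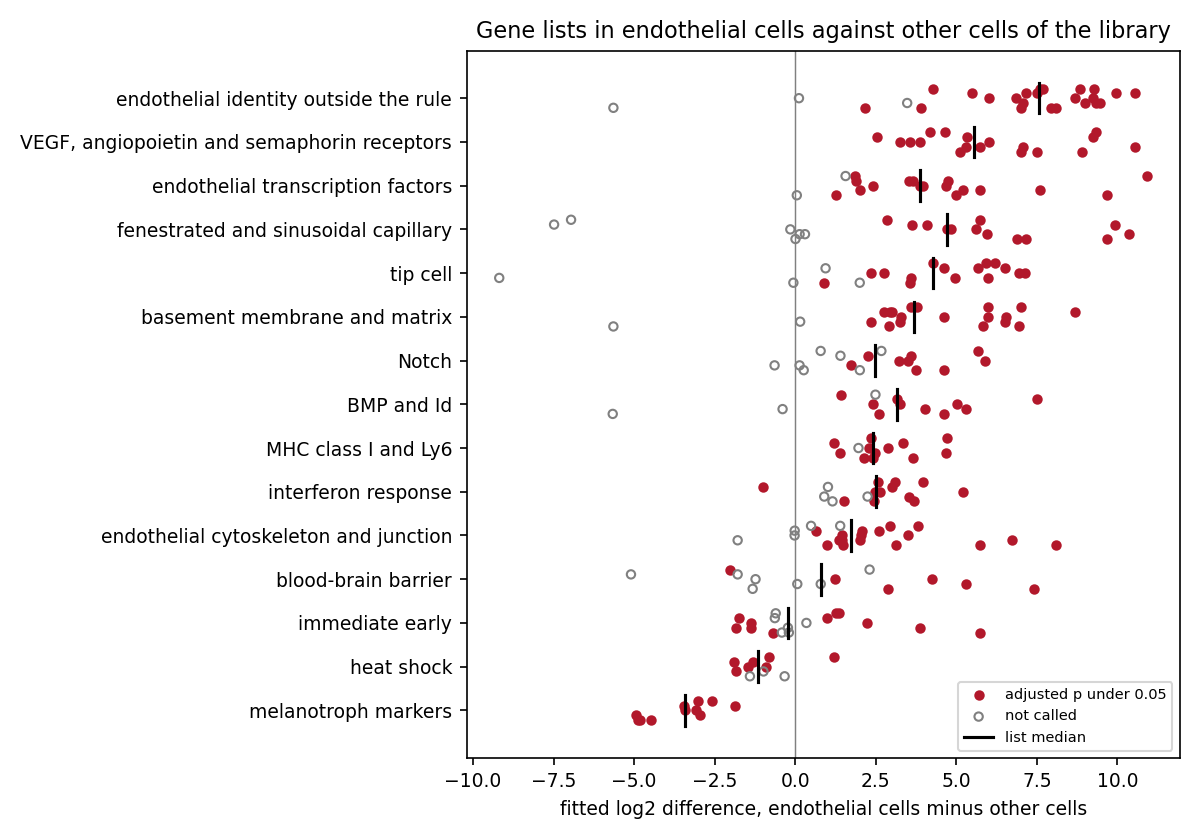
Fitted log2 difference of each gene between endothelial cells and all other cells for 15 gene lists (red points: adjusted p under 0.05, open grey points: not called, black bars: list medians). The endothelial, receptor and matrix lists lie to the right of 0 and the melanotroph markers to the left.

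The receptors by which vessels read growth and guidance signals were higher without exception, 18 of 18 tested, with a median log2 difference of 5.53. Tek, the receptor of the angiopoietins, stood at 255, 137 and 244 CPM (9.24 ± 0.51) and Tie1, its partner, at 247, 178 and 165 CPM (9.35 ± 0.59, adjusted p = 5.5e-55). Aplnr, the apelin receptor, was read at 165, 206 and 129 CPM (8.91), and S1pr1, which tightens junctions on sphingosine 1-phosphate, at 288, 288 and 144 CPM (7.08). Lower differences were measured for the VEGF and semaphorin coreceptors Nrp1 (5.73) and Nrp2 (3.88) and the semaphorin receptor Plxnd1 (5.11).

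Fewer ligands were higher, 7 of 18, with a median of 1.13. Pdgfb, which recruits pericytes, was read at 123, 165 and 93.4 CPM (5.93), Vegfc at 65.8, 41.1 and 79.0 CPM (6.22) and the chemokine Cxcl12 at 115, 494 and 101 CPM (4.53). Angpt2, the ligand that loosens vessels, gave 7, 3 and 0 UMIs (2.34, adjusted p = 0.015) and lost its call without the WT or the P27NULL library. Without P27NULL only 3 of 17 ligands were higher. Vegfa was not called.

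Among endothelial transcription factors 17 of 19 tested genes were higher (median 3.89), and 5 of the 24 listed, Erg, Sox7, Tal1, Foxf1 and Meox2, were not tested. Sox18 stood at 247, 384 and 223 CPM (9.67 ± 0.47, adjusted p = 4.4e-92) and Sox17 at 173, 480 and 115 CPM, from 72 UMIs against 3 in the other cells, a ratio of 3080 (1013 to 15287, exact 95% counting interval). Both belong to the SoxF group, which directs vessel formation, and 18 of the 35 Sox17 UMIs of P27NULL lay in 1 member. Klf2, a factor induced by blood flow, was read at 1283, 823 and 726 CPM against 19.2, 10.8 and 9.69 CPM (5.73 ± 0.21, adjusted p = 7.1e-163). Epas1, which encodes HIF-2alpha, differed by 4.75 and Mef2c by 3.97. Lyl1 and Foxo1 were not called.

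Promoter windows of RefSeq (GRCm38.p6), the 250 bases before a listed start of transcription, are shown for 4 genes as examples. They are the rule gene Emcn, and Adgrl4, Tie1 and Myct1 from the 15 genes with the highest differences. The Emcn window runs past the first base of the gene span given above. Windows of other genes with few UMIs or none in the other cells, among them Grrp1 and Robo4, are not shown. Capitals mark AGGAAG, or CTTCCT where it lies on the other strand, a core of the sites bound by ETS factors, a family that holds many regulators of endothelial genes. Emcn (chr3:137340828-137341077, plus strand) holds 2, Adgrl4 (chr3:151437632-151437881, plus strand) 1, Tie1 (chr4:118489850-118490099, minus strand) 1 and Myct1 (chr10:5593478-5593727, plus strand) 0.
Emcn: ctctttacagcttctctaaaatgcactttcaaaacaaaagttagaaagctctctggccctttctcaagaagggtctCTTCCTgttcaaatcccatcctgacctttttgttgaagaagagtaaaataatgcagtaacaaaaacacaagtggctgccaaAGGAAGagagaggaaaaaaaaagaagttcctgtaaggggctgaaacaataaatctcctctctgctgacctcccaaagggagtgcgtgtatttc
Adgrl4: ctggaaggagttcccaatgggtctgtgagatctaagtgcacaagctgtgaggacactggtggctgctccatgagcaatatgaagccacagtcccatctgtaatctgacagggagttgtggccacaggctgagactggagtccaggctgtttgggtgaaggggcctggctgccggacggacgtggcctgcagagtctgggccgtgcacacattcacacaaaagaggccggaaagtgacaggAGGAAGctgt
Tie1: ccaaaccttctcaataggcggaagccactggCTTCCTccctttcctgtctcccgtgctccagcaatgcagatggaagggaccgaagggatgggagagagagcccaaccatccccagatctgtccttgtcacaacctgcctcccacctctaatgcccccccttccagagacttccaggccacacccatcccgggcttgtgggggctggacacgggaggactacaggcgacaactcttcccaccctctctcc
Myct1: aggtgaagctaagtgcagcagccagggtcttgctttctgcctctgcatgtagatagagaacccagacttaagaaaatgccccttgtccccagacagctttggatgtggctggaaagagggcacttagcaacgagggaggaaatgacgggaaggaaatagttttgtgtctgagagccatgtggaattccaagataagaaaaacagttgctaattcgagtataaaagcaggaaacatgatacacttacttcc
Over all RefSeq genes, 8734 of 27025 (32.3%) hold this motif in at least 1 such window. It was found in 4 of the 5 rule genes with an entry (of 9), in 9 of 15 identity genes (of 26), in 5 of 14 endothelial transcription factors (of 24) and in 3 of 9 melanotroph markers (of 11). These letters are a description of the windows, and no binding was measured.

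Lists of vessel types were set side by side. Of 19 genes tested for fenestrated and sinusoidal capillaries (21 listed) 13 were higher, with a median log2 difference of 4.71. Plpp1, which encodes a lipid phosphatase, was read at 1275, 466 and 1337 CPM (5.62 ± 0.21), in 81.3%, 68.2% and 84.8% of members. Rgcc stood at 1160, 590 and 934 CPM (2.85). For the blood-brain barrier 5 of 13 genes tested (21 listed) were higher and 1 lower, with a median of 0.79, and without WT only 3 of 12 were higher. Itm2a stood at 526, 398 and 697 CPM (7.40 ± 0.25), the drug pumps Abcg2 at 288, 219 and 230 CPM (4.25) and Abcb1a at 49.4, 110 and 71.9 CPM (5.31), and the amino acid carrier subunits Slc3a2 and Slc7a5 were higher by 1.23 and 2.89. Spock2 was lower (-2.03, adjusted p = 0.00093). The defining carriers of that barrier were near absent, with 0 UMIs of Mfsd2a and 2, 0 and 0 UMIs of the glucose transporter Slc2a1. Cldn5, the tight junction claudin, was found in 9.33%, 18.2% and 13% of members at 82.3, 96.0 and 122 CPM.

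Arterial genes were higher in 7 of 11 tested (16 listed), namely Efnb2, Fbln5, Hey1, Mgp, Tm4sf1, Unc5b and Vegfc, and venous genes in 3 of 5 (13 listed), among them Ephb4 and Il1r1, or in 1 of 3 without P27NULL. Tm4sf1, a membrane protein of endothelial cells, was steady at 1867, 1700 and 1703 CPM (5.22 ± 0.20). Efnb2 and Ephb4, the classical pair of artery and vein, gave 13, 3 and 9 and 2, 4 and 3 UMIs, too few to sort single members. Of the lymphatic genes Flt4 was higher (15, 4 and 5 UMIs, 7.01), whereas the defining Prox1 gave 0, 0 and 1 UMIs against 32.6, 45.4 and 28.9 CPM in the other cells (-3.94, adjusted p = 0.00034) and Lyve1 gave 0 UMIs. A count of 0 allows up to 24.7, 41.1 and 21.6 CPM in the 3 libraries (3 UMIs), counting error only.

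**Figure D4:**
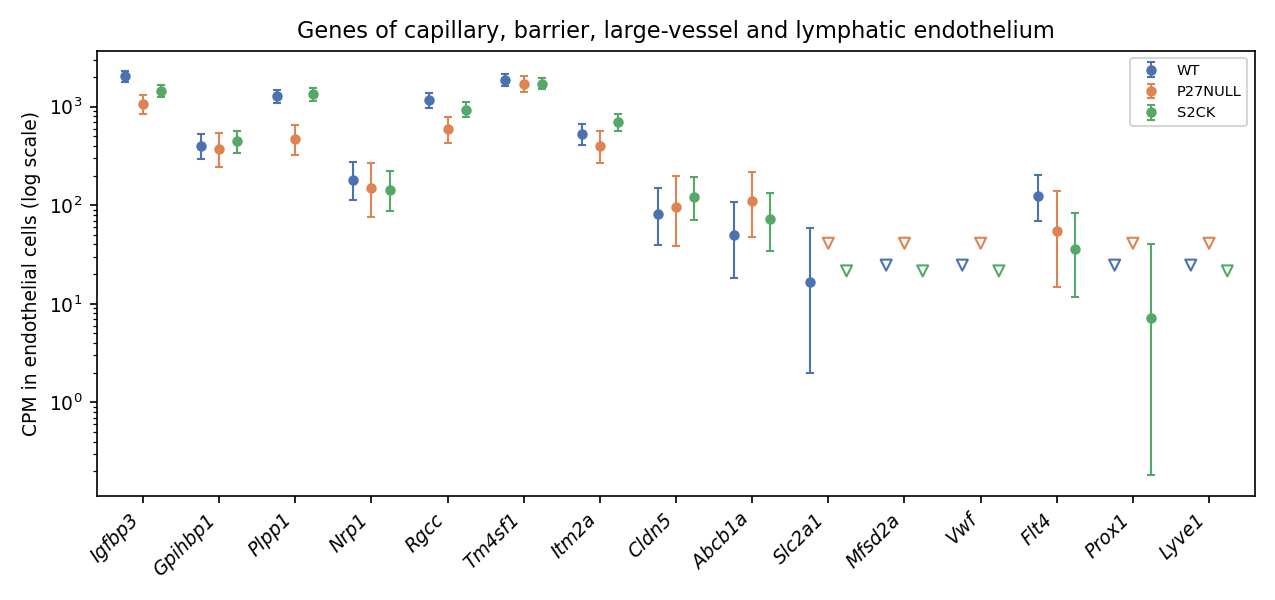
Levels in endothelial cells of 15 genes of fenestrated, blood-brain barrier, arterial, venous and lymphatic vessels in each library (CPM on a log axis, bars are exact 95% Poisson intervals, and open triangles mark the level of 3 UMIs where a gene gave 0 UMIs). Igfbp3, Plpp1, Rgcc and Tm4sf1 lie high in every library, and Mfsd2a, Vwf and Lyve1 are at 0 throughout.

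Genes of the basement membrane, the sheet on which endothelial cells rest, were higher in 18 of 20 (median 3.69). Col4a1 and Col4a2, the paired collagen IV chains, were read at 781, 1289 and 503 CPM (6.95 ± 0.22, adjusted p = 9.6e-208) and at 239, 521 and 367 CPM (6.53). The perlecan gene Hspg2 stood at 222, 329 and 173 CPM (7.01), Sparc at 1119, 1467 and 1020 CPM (5.83) and Igfbp7 at 2920, 2386 and 3119 CPM (5.99 ± 0.19, adjusted p = 3.5e-204). Sparcl1 (387, 590 and 316 CPM) was not called (0.15, adjusted p = 0.65), but was past the threshold with library totals.

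Tip cell genes, which mark the leading cells of a sprout, were higher in 15 of 19 (median 4.28). Esm1, the most used of these markers, was read at 304, 96.0 and 230 CPM in endothelial cells and at 157, 175 and 170 CPM in the other cells (-0.06, adjusted p = 0.88). Notch genes were higher in 9 of 16 (median 2.47), or in 5 of 16 without S2CK, with the ligand Dll4 at 98.7, 13.7 and 64.7 CPM (5.68), Notch1 at 98.7, 68.6 and 35.9 CPM (4.61) and the target Hes1 at 362, 644 and 302 CPM (3.50). Targets and receptors of BMP signalling were higher in 10 of 13 (median 3.16), or in 6 of 13 without WT. Id3 stood at 1629, 987 and 1179 CPM (5.01 ± 0.20) and Id1 at 452, 233 and 151 CPM (4.61).

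Transcripts that present antigen or answer interferon were also higher. In the list of MHC class I and Ly6 genes 12 of 13 were higher (median 2.40), with B2m at 1135, 1810 and 1552 CPM against 114, 68.8 and 80.9 CPM (3.65 ± 0.19), H2-D1 at 1522, 1330 and 2221 CPM (2.88) and H2-K1 at 1069, 1165 and 1789 CPM (2.48). H2 and Ly6 genes have near copies, so their counts are uncertain. Of 16 interferon response genes 11 were higher and 1, Ifi27l2a, lower (median 2.51), and 7 were higher without S2CK. Ifitm3 was read at 2402, 2632 and 3500 CPM (3.55 ± 0.17) and Bst2 at 1020, 562 and 1387 CPM (3.97). The Ifi27l2a call was lost with library totals, by DESeq2 and without WT. Of 8 leukocyte adhesion genes tested (12 listed) 5 were higher, among them Icam2 (9.0), which is present on resting vessels. Icam1, which inflammation induces, gave 2, 0 and 1 UMIs and was not called.

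Cytoskeleton and junction genes were higher in 17 of 22 (median 1.74). Tmsb4x, the actin-sequestering thymosin, differed by 3.14 ± 0.13 and was detected in every member, Actb differed by 1.45 (3455, 3236 and 5404 CPM) and Vim by 3.81 (197, 603 and 223 CPM). Genes of S phase and mitosis were higher in 10 of 17 and lower in 1, Stmn1 (median 2.49), but in 5 without P27NULL and 4 without S2CK. Only 2 of 75, 4 of 22 and 4 of 46 members held 3 or more of these genes, beside 4.73%, 4.99% and 12.8% of the other cells. In S2CK 18 of the 20 Ube2c UMIs lay in 1 member. Of 14 genes for p27, other Cdk inhibitors and D cyclins 3 were higher and Ccnd2 lower, while Cdkn1b did not differ from the other cells past the threshold (0.05 ± 0.47, adjusted p = 0.95). Without WT or without S2CK 1 was higher.

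Immediate early genes, which dissociation of a tissue can induce, moved both ways. Of 17, 6 were higher, with Jun at 337, 686 and 223 CPM (0.99), and 5 lower, with Fos at 280, 603 and 158 CPM against 1119, 925 and 493 CPM (-1.85 ± 0.19, adjusted p = 4.1e-20) and Junb (-1.39). Lower genes were 3 without WT and higher genes 2 without P27NULL. Heat shock genes were lower in 6 of 10, or in 3 of 10 with library totals, with Hspe1 at 173, 288 and 259 CPM against 666, 678 and 538 CPM (-1.84), and Hspb1 was higher (1.21). Of 17 hypoxia genes 4 were higher and 5 lower (median 0.39). Of the glycolysis genes Ldha was higher (0.81, adjusted p = 0.0031), and Aldoa (-1.46) and Pgk1 were lower. Without WT 1 hypoxia gene was lower (2 by DESeq2, 3 with library totals), and without S2CK 2 were higher and 3 lower.

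Markers of other cell types were counted in the same way. All 11 melanotroph markers were lower (median -3.43). Pomc, the hormone precursor of melanotrophs, still stood at 3825, 2770 and 24585 CPM in endothelial cells and was detected in 92.0%, 95.5% and all of them, and Pcsk2, which cuts that precursor, stood at 98.7, 13.7 and 309 CPM against 3283, 5156 and 2236 CPM in the other cells (-4.94 ± 0.19). At least 3 melanotroph markers were found in 5, 5 and 14 members. Macrophage markers were lower in 7 of 12, or in 4 without WT and 3 by DESeq2. Since the rule bars cells with more than 1 of C1qa, C1qb, Dcn and Cyp2f2, low macrophage markers follow in part from the choice. Of 12 fibroblast markers 3 were higher with library totals, 2 among cells with 500 genes and 1000 UMIs, and 1 by DESeq2, without WT or with 2 rule genes, and no call was made under the settings used for the other lists. Cga, a gonadotroph and thyrotroph gene, was higher (0.78), but 1459 of 1545, 114 of 116 and 810 of 823 UMIs lay in 1 member of each library, and without the members holding hormone or haemoglobin UMIs it was lower (-2.98). The haemoglobin genes Hbb-bs and Hba-a1 were higher through 1 member of P27NULL and 1 of S2CK, and were not called without such members.

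Pericyte markers behaved otherwise, with 10 of 12 tested (14 listed) higher (median 4.90). Pericytes wrap capillaries and share their basement membrane. Rgs5 was read at 543, 672 and 366 CPM against 3.29, 4.13 and 4.82 CPM (6.49 ± 0.24, adjusted p = 1.3e-159), Kcnj8 gave 12, 10 and 6 UMIs (5.94) and Pdgfrb 8, 9 and 9 UMIs (4.56). Rgs5 was found in 37.3%, 36.4% and 34.8% of members. The list summed to 1152, 1741 and 798 CPM in endothelial cells and to 27.6, 25.0 and 28.3 CPM in the other cells, and 5, 4 and 4 members held 3 or more of its genes. The contractile genes Acta2 and Tagln, listed for smooth muscle as well, were not called and Cspg4 and Myh11 were not tested. The part of attached pericytes in these values was not tested.

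To ask which of these differences hold against other cells of the tissue's stroma, the endothelial sums were compared with those of 377 macrophage cells and 101 fibroblast cells, each found by a rule of the same kind. Of 7912 genes tested 505 (6.38%) were higher and 264 (3.34%) lower than the mean of both, and without WT 244 and 69 (without P27NULL 360 and 172). Identity genes were higher in 23 of 24 (median 5.76, or 5.53 with 5 genes that gave 0 UMIs in the stroma cells set to their bound), receptors in 14 of 16 (9 of 14 without WT), fenestrated capillary genes in 11 of 14 and transcription factors in 13 of 19 (7 by DESeq2). Leading genes by fitted difference were Hbb-bs, Fabp4, Hba-a1, Adgrl4, Gpihbp1, Sox18, Clec14a, Igfbp3 (8.29), Sox17 and Irx3. Most of them gave 0 UMIs in every macrophage and fibroblast sum, so only a bound can be stated over the pooled sums, at least 693-fold higher for Fabp4, 198-fold for Adgrl4, 189-fold for Gpihbp1, 123-fold for Sox18, 121-fold for Clec14a, 99.1-fold for Sox17 and 82.6-fold for Irx3. Of these genes Adgrl4, Gpihbp1, Sox18, Clec14a, Sox17 and Irx3 were not past the threshold of DESeq2. Hbb-bs and Hba-a1 rest on the same 2 members as before. Igfbp3 was read at 0, 0 and 2.29 CPM in macrophages and 33.1, 0 and 0 CPM in fibroblasts.

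Other lists gave smaller counts in that comparison. Basement membrane genes were higher in 9 of 18 (Col4a1 4.14, Igfbp7 3.74, Sparc 1.97), MHC class I and Ly6 genes in 9 of 13 (H2-D1 1.08, B2m 0.91), interferon genes in 5 of 16 (2 of 14 without WT, 3 without the library as a block) and cytoskeleton genes in 7 of 21 (11 with library totals). Lower were 1 interferon gene (Ifi27l2a) and 1 cytoskeleton gene (S100a11). Tmsb4x (0.33, adjusted p = 0.13) and Actb (-0.34, adjusted p = 0.19) were not called, though both had differed from all other cells. Esm1, not called against all other cells, was higher here (2.03, adjusted p = 0.00028), but not without WT. Of 17 immediate early genes 2 were higher and 1, Junb, lower, and Fos was not called. Lower were 4 with 4 rule genes, 6 with no gene of other cell types and 0 with 2 rule genes. Of 8 heat shock genes 1 was higher (Hspb1) and 1 lower (Hspe1), and 0 were called by DESeq2. Pericyte markers were higher in 7 of 9, with Rgs5 at 5.09, but in 3 of 8 without WT, 4 of 7 without P27NULL and 4 of 9 by DESeq2. Tagln, on the same list, was lower.

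Between genotypes there was 1 library on each side, so no test was run. Differences are log2 ratios of CPM with exact 95% intervals for counting error. For P27NULL against WT 58 of 1610 genes (3.6%) were at least 2-fold higher and 111 (6.89%) at least 2-fold lower. For S2CK against WT the counts were 88 (4.19%) and 152 (7.23%) of 2101 genes, and for S2CK against P27NULL 151 (9.01%) and 118 (7.04%) of 1675. WT gave no Xist UMI and S2CK no Y-linked UMI, so sex and genotype cannot be told apart in S2CK against WT. The comparisons share libraries, so a value high in P27NULL alone appears in 2 of them.

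Several endothelial genes had similar levels in the 3 libraries. Tm4sf1 differed by -0.14 (-0.46 to 0.19) for P27NULL against WT, by -0.13 (-0.40 to 0.14) for S2CK against WT and by 0.00 (-0.32 to 0.33) for S2CK against P27NULL. Adgrl4 differed by -0.26, -0.35 and -0.08 and Ramp2 by -0.22, 0.06 and 0.28 in the same order, with 0 inside every interval. The identity list had median ratios of -0.21, -0.35 and -0.21 over 19, 21 and 19 genes, beside -0.06, -0.07 and 0.07 over all genes. The first turned to 0.11 when 2 rule genes were enough, and the last to 0.077 without the members richest in melanotroph UMIs.

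Plpp1, Igfbp3 and Rgcc, all on the fenestrated capillary list, were read lower in P27NULL than in WT. Plpp1 was read at 466 CPM (323 to 651) there, beside 1275 (1082 to 1492) in WT and 1337 CPM (1152 to 1543) in S2CK, log2 ratios of -1.45 (-2.03 to -0.91) for P27NULL against WT and 1.52 (0.99 to 2.09) for S2CK against P27NULL. Igfbp3 differed by -0.94 (-1.33 to -0.57) for P27NULL against WT, and Rgcc by -0.98 (-1.50 to -0.47). In the fenestrated list 1 gene lay above 0 and 10 below for P27NULL against WT, with a median of -0.69 (-0.52 in the other cells), but 1 gene was at least 2-fold lower and 1 at least 2-fold higher. With 2 rule genes required the median was -0.37, with 4 above 0 and 7 below. Cd300lg gave 23, 2 and 7 UMIs, a ratio of -2.79 (-5.92 to -0.77) for P27NULL against WT.

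Other genes were higher in P27NULL than in both other libraries. Sox17 stood at 173 CPM (107 to 264), 480 (334 to 667) and 115 CPM (65.7 to 187), and Cxcl12 at 115 CPM (63.0 to 193), 494 (346 to 683) and 101 CPM (55 to 169). In P27NULL 1 member held 18 of the Sox17 UMIs, and 1 member held 18 of the 36 Cxcl12 UMIs. The ratios for P27NULL against WT were 1.47 (0.65 to 2.33) for Sox17 and 2.10 (1.17 to 3.10) for Cxcl12, and were 1.5 and 1.60 without the deepest member of each library. Leaving out the deepest member does not by itself leave out the member with most Sox17 UMIs. Col4a1 differed by 0.72 (0.29 to 1.15) for P27NULL against WT and by -1.36 (-1.82 to -0.90) for S2CK against P27NULL, or by 0.31 and -1.0 without the deepest members. Vim, the mesenchymal filament, differed by 1.61 (0.86 to 2.39) and -1.44 (-2.15 to -0.74), Tmsb10 by 0.77 and -1.37, and S100a6 by 2.60 (1.85 to 3.41) and -2.58. S100a6 moved the other way in the other cells (-1.43 and 1.39), and 32 of its 69 UMIs in P27NULL lay in 1 member. Fabp4 was 2.41 (2.02 to 2.82) higher in P27NULL and 1.39 (0.99 to 1.80) higher in S2CK than in WT. Without the deepest members these became 1.13 and 1.33, and S2CK against P27NULL turned from -1.02 to 0.20. Basement membrane genes had a median of 0.57 for P27NULL against WT, 7 of 9 above 0, which was -0.019 without the deepest members and so rests on 1 member of each library.

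In S2CK, Cyp26b1, which encodes an enzyme that breaks down retinoic acid, was read at 410 CPM (310 to 531) beside 98.7 (51.0 to 172) and 137 CPM (65.8 to 252), a ratio of 2.05 (1.14 to 3.09) against WT. It was found in 47.8% of S2CK members and in 16% and 22.7% of the others. Against P27NULL the ratio was 1.58, but -0.10 when only P27NULL cells with Xist were used. H2-D1 differed by 0.55 (0.28 to 0.82) and H2-K1 by 0.74 (0.43 to 1.06) for S2CK against WT, and 10 of 12 MHC class I and Ly6 genes lay above 0, with a median of 0.42 (-0.05 in the other cells). Bst2 differed by 1.30 (0.81 to 1.83) for S2CK against P27NULL. Lower in S2CK than in WT were Id1 (-1.58, -2.38 to -0.83), Klf2 (-0.82, -1.20 to -0.45) and Adgrf5 (-2.68, -4.41 to -1.29), which gave 28, 16 and 5 UMIs.

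**Figure D5:**
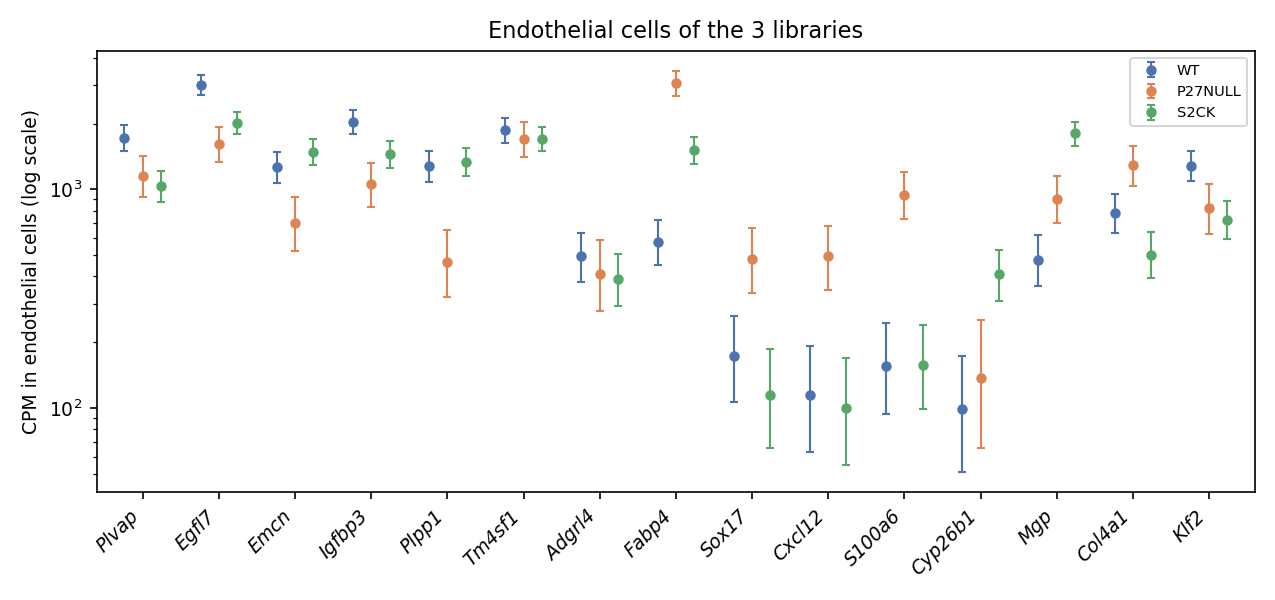
Levels of 15 genes in the endothelial cells of each library, in CPM on a log axis with exact 95% Poisson intervals. Tm4sf1 and Adgrl4 are level, Plpp1 is lowest and Sox17 and Cxcl12 are highest in P27NULL, and Cyp26b1 is highest in S2CK.

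The remaining large ratios rested on single members or were shared with the other cells. Haemoglobin genes led P27NULL and S2CK against WT through 1 member each. Mgp was 1.92 higher in S2CK than in WT with 145 of 251 UMIs in 1 member, and was 2.29 lower on the log2 scale when no gene of another cell type was allowed. Itih5 (3.05, 1.58 to 5.0) had 20 of 38 UMIs in 1 member, Elobl gave 57 UMIs in 1 member of P27NULL and 0 elsewhere, and Hist1h2ap, a histone gene with near copies, had 24 of 40 in 1. Fshb, Lhb, Cga and Mia were highest in WT with most UMIs in 1 member, 68 of 80 for Fshb, 35 of 43 for Lhb and 38 of 75 for Mia. Polr2l (-3.48) and Susd6 (-2.24) were lower in S2CK than in WT, and Rbm3 (1.37) higher in S2CK than in P27NULL, in the same direction as in the other cells (-1.50, -1.13 and 1.20). Gm42418 (-1.77 for P27NULL against WT) and Tmem176a (1.90 for S2CK against P27NULL) were also among the genes chosen by size.

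Immediate early genes had medians of 0.45 for P27NULL against WT, -0.60 for S2CK against WT and -0.81 for S2CK against P27NULL in endothelial cells. Jun differed by 1.02 (0.40 to 1.66) for P27NULL against WT and by -1.62 (-2.32 to -0.95) for S2CK against P27NULL. For Fos the ratios were 1.11 and -1.93, but -0.37 and 0.67 when no gene of another cell type was allowed in a member, and 32 of its 44 UMIs in P27NULL lay in 1 member. Under the same exclusion the list medians were -0.34, 0.045 and 0.51, opposite in sign to those above. The other cells had list medians of -0.33, -0.90 and -0.40.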

How the data were processed

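The authors deposited raw UMI counts per gene and cell barcode, with no normalization, made with 10x Chromium 3′ chemistry and Cell Ranger 3.0.2 on Ensembl GRCm38 (mm10). Cells with fewer than 50 genes or over 10% mitochondrial content are stated as removed. All deposited barcodes were kept and no doublet caller was run. Positions are from RefSeq GRCm38.p6 (425 of 427 genes matched).

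Counts were summed per library and cell group and tested with edgeR 4.0.16 (quasi-likelihood, TMM, R 4.3.3) on genes with at least 20 UMIs, with the library as a block, which pairs the sums of 1 library by construction. The p-values measure the spread between 3 libraries of different genotype. Macrophage and fibroblast cells held at least 3 of 9 genes each (C1qa, C1qb, C1qc, Csf1r, Tyrobp, Fcer1g, Ctss, Cx3cr1, Laptm5, and Dcn, Lum, Col1a1, Col1a2, Col3a1, Pdgfra, Apod, Serpinf1, Mfap5). They also held at most 1 of the endothelial rule genes. Ratios between genotypes used genes with at least 20 UMIs in both libraries together, with exact conditional binomial intervals (scipy 1.17.1) that cover counting error only. The edgeR step was tested on simulated data.

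Genes named by size were the 15 highest (at least 30 UMIs) and 5 lowest (at least 1000 UMIs) against other cells, the 10 highest against macrophages and fibroblasts, with the same direction in 3 libraries, and the 5 largest changes each way between 2 libraries (at least 40 UMIs and a level no lower than in other cells). A few genes that the rule or a list holds are not reported here. Further genes are list members, some chosen after their values were seen. The members, the rule and the 30 gene lists were chosen with earlier results of these data known. Alternatives were DESeq2 1.42.0, other filters, scalings and rule thresholds, cells of one sex, leaving out each library and, chosen after seeing the data, library totals and leaving out the deepest members or those holding hormone or haemoglobin UMIs.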

Additional observations from a re-analysis of the deposited data

Results flagged for a closer look

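The median of the basement membrane and matrix genes had opposite signs in endothelial and other cells. For P27NULL against WT its median log2 ratio was 0.57 in endothelial cells and -0.89 in all other cells, and for S2CK against P27NULL it was -0.52 and 0.32. With 1 library for each genotype the difference was not tested. Without the deepest member of each library the endothelial values were -0.019 and -0.23, and for S2CK against P27NULL cells of one sex gave 0.21, the sign of the other cells. That setting used 8 P27NULL cells with Xist, and the median over all genes in it was 0.26.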

How the results depend on the processing

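Of the values that answer a comparison, 345 under alternative settings stayed within the margin set for each (the counting interval of a share, the counting error of a list median or 1.5 times a count), 52 moved further and 7 turned from a value beyond that margin. Of 254 list medians 26 changed sign, 15 of them within the margin. The WT share was 2.54% among cells with 500 genes and 1000 UMIs and 2.15% after thinning. DESeq2 called 750 genes lower than in other cells, and 275 higher and 93 lower than in macrophages and fibroblasts, with 3753 and 1078 genes left without an adjusted p. Library totals gave 759 and 161 lower genes. Leaving out 1 library gave 725 to 877 genes higher and 825 to 1185 lower than other cells, and 244 to 396 higher and 69 to 188 lower than macrophages and fibroblasts. Without the replicate block, which pairs sums of 1 library, the counts were 1172 and 1431, and 472 and 183. For P27NULL against WT 36 genes were 2-fold higher with TMM factors, and 19 higher and 19 lower among genes with 50 UMIs. For S2CK against WT 56 were higher and 100 lower without members holding hormone or haemoglobin UMIs, and 11 and 26 with 50 UMIs. For S2CK against P27NULL 72 were lower without those members, 67 lower with TMM factors, 35 higher and 35 lower with 50 UMIs, and 239 higher in cells of one sex, a setting with no value for S2CK against WT.

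List medians for P27NULL against WT with 2 rule genes were 0.11 (identity), -0.37 (fenestrated), 0.017 (immediate early), 0.27 (MHC class I) and 0.61 (cytoskeleton). Immediate early genes gave -0.36 with 4 rule genes and -0.34 with no gene of other cell types, and basement membrane genes 0.24 without hormone or haemoglobin members and -0.019 without the deepest. For S2CK against WT, no gene of other cell types gave -0.41 (basement membrane) and 0.045 (immediate early), and leaving out hormone or haemoglobin members gave -0.0030 (fenestrated) and -0.13 (immediate early). For S2CK against P27NULL, 2 rule genes gave -0.51 (identity) and -0.14 (MHC class I), 4 rule genes -0.11 (immediate early) and -0.23 (cytoskeleton), and no gene of other types 0.081 (fenestrated), -0.90 (basement membrane) and 0.51 (immediate early). Leaving out members rich in melanotroph UMIs gave 0.077 (identity) and 0.49 (MHC class I), and leaving out hormone or haemoglobin members 0.77 (fenestrated), -0.22 (basement membrane) and 0.45 (MHC class I). Leaving out the deepest gave -0.23 (basement membrane), -1.23 (immediate early) and -0.20 (cytoskeleton), genes with 50 UMIs -0.27 (immediate early) and 0.62 (MHC class I), and cells of one sex -1.31 (transcription factors), 0.21 (basement membrane) and 0.46 (immediate early). In cells of one sex the median over all genes was 0.26.

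Among single genes 3700 values kept their direction and call, 58 lost a call, 10 gained one, 99 moved and 19 turned. Against other cells Cga turned to -2.76 with 4 rule genes, -0.37 without melanotroph-rich members, -0.18 without S2CK (1.46 without P27NULL), -2.98 without hormone or haemoglobin members and -0.47 without the deepest, and Tshb to 0.36 by DESeq2. Between libraries Cga turned to 1.01, 5.10 and 1.31 (P27NULL against WT, without melanotroph-rich, hormone or haemoglobin, and deepest members) and to -3.51 (S2CK against P27NULL, without hormone or haemoglobin members). Fos turned to -0.49 (4 rule genes) and -0.37 for P27NULL against WT, and to 0.67 and 0.85 (one sex) for S2CK against P27NULL. Mgp turned to -2.29 for S2CK against WT, and Hba-a1 to 3.93 and Ier2 to 0.51 for S2CK against P27NULL, all with no gene of other types, Cyp26b1 to -0.10 in cells of one sex and Fabp4 to 0.20 without the deepest. The cause was not tested for any of these. With 22 endothelial cells and 72934 UMIs, P27NULL sets the depth, and 3 UMIs there are 41.1 CPM.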

Other observations

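Further list counts not given above were 2 of 12 stem cell markers higher (Ednrb and Rbpms) and 3 lower (Epcam, Krt18 and Krt8) in endothelial cells than in other cells, and 2 of 10 pituicyte markers higher, Adm with 0, 5 and 3 UMIs and Gja1 with 15, 10 and 17 UMIs (log2 differences 4.28 and 6.12). Gja1 encodes the gap junction protein connexin 43. Another, Mest, was lower. Anterior lobe hormone genes were lower in 3 of 7 (Gh, Prl and Tshb).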
